A study of Homo sapiens with 9 samples.

Results

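The genes described here are 10 genes of the cytoskeleton listed as highly expressed: the cytoplasmic actins ACTB and ACTG1, the α-tubulins TUBA1A, TUBA1B and TUBA1C, the β-tubulins TUBB, TUBB2A and TUBB4B, the γ-tubulin TUBG1, and CFL1, which encodes cofilin, a protein that severs actin filaments. They were chosen by name, out of 20033 protein-coding genes of GENCODE version 44. A peak belonged to a gene when its summit, the position of its highest signal, fell inside the gene or no more than 1000 bp from 1 of its annotated starts. By this rule 7 of the 10 had a peak of RNA polymerase II and 3, TUBA1A, TUBB and TUBG1, had none in any list.

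The peaks come from chromatin immunoprecipitation and sequencing of POLR2A, the catalytic subunit of this enzyme, in HEK293T, a line derived from human embryonic kidney. The conditions were a control shRNA in otherwise wildtype cells, knockdown of U2AF1, which helps to recognise the 3′ splice site, and depletion of DHX9, a helicase of RNA and DNA, by knockdown. Each had 2 immunoprecipitated replicates and 1 input, 9 samples in all, but 1 deposited peak list, so that no value below has a replicate error and no difference between conditions could be tested. The control list had 2757 peaks, that of the U2AF1 knockdown (shU2AF1) 1730 and that of the DHX9 knockdown (shDHX9) 4443, and the read depth behind them is unknown. Peaks give no RNA or protein level, so the depletion of U2AF1 and DHX9 was not checked here.

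Actin and tubulin are the building blocks of microfilaments and microtubules. Transcription of the cytoplasmic actin genes responds to the amount of unpolymerised actin in the cell: free actin holds back coactivators of the serum response factor SRF, which binds a motif called the CArG box in actin promoters. Tubulin is instead known for control of its own messenger RNA stability by free tubulin dimers. At most active genes RNA polymerase II pauses shortly after initiation, and the paused enzyme gives the highest signal just downstream of the start.

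The promoters of 4 of the genes are shown because their peaks carry most of what follows. Each line holds the 130 bases before the canonical start on the coding strand, read 5′ to 3′ from GRCh38. Capitals mark the CArG box, the TATA-like motifs and the CCAAT box that are described after the sequences.

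ACTG1, chr17:81512800-81512929, minus strand: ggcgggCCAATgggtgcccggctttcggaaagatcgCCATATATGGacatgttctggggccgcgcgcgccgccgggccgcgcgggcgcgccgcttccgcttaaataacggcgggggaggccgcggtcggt
TUBA1B, chr12:49131396-49131525, minus strand: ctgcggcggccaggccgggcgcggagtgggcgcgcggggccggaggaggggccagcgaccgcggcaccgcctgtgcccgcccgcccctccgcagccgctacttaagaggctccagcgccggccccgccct
TUBB2A, chr6:3157545-3157674, minus strand: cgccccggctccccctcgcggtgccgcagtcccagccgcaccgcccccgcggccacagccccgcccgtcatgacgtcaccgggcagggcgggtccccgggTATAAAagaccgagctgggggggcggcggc
TUBB4B, chr9:137241157-137241286, plus strand: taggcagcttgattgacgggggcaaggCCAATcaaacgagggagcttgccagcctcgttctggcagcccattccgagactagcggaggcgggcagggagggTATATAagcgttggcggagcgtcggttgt

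Promoters were described for 9 of the genes, without ACTB. In the 250 bases before the start, the CArG box was found in ACTG1, from -94 to -85. Among all 20033 protein-coding promoters 1.12% held one. The letters TATAAA, searched on both strands like each motif, lay at -30 to -25 in TUBB2A, against 9.34% of all promoters with a match anywhere in the window. TATATA, which was added after these sequences had been seen, lay at -29 to -24 in TUBB4B, at -33 to -28 in TUBA1C and at -30 to -25 in TUBA1A, against 3.26% of promoters. TUBA1B and TUBB2A had no CCAAT, the letters of the box bound by NF-Y, and the other 7 genes had at least 1, against 34.3% of promoters. GGGCGG, a core of sites for Sp1, was in 7 of the 9 and in 59.0% of all promoters. In the 9 genes no match of a motif overlapped that of another motif. These matches are descriptions of the letters, and the motif sets do not separate the genes with a peak from those without: TUBA1A, with TATATA and CCAAT, had no peak, and TUBA1B, with GGGCGG as its only match, had a peak in every list.

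The share of G and C in the 250 bases ranged from 56.4% in TUBA1A to 81.2% in TUBA1B. Its median was 70%, against a median of 63.2% over all protein-coding promoters. TUBA1A and TUBB4B, the latter with 56.8%, lay below the median of all promoters. The ratio of observed to expected CpG had a median of 0.884, against 0.749, and was 0.553 in TUBA1A. In the first 500 bases of the coding strand after the start, the excess of G over C as a share of both had a median of 0.045 for the 9 genes and 0.053 for all genes. It was above 0 in 7 of the 9 and below 0 in TUBA1C, at -0.068, and in TUBG1, at -0.070.

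A peak was present at ACTB, ACTG1, TUBA1B, TUBA1C, TUBB2A, TUBB4B and CFL1 in each of the 3 lists. The count of 7 of 10 stands beside 13.2% of all protein-coding genes in the control list, 7.35% in the shU2AF1 list and 22.2% in the shDHX9 list. A peak in all 3 lists was found for 7 of the 10 genes and for 4.34% of all protein-coding genes. The genes were listed as highly expressed, so a share above that of all genes is partly set by the choice.

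**Figure D1:**
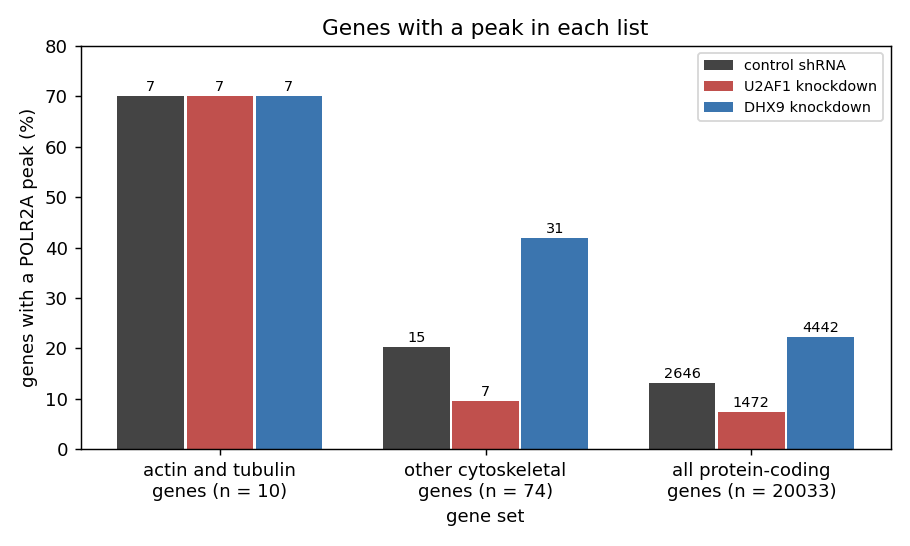
Share of genes with at least 1 POLR2A peak (vertical axis, percent) among the 10 actin and tubulin genes, 74 other cytoskeletal genes and all 20033 protein-coding genes. Bars are the 3 lists and the numbers above them are genes. The first set stayed at 7 of 10 while the others followed the length of the list, from 1472 to 4442 of all genes.

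All 7 genes with a control peak also had one in both knockdown lists. Of all 2646 protein-coding genes with a control peak, 36.5% had one in the shU2AF1 list and 76.1% in the shDHX9 list. A restriction to strong control peaks gave higher shares. Of the 825 genes whose control peak ranked 801, the lowest rank among the 7, or better, 56.1% had a peak in the shU2AF1 list and 85.3% in the shDHX9 list. Both shares use the same control list and are given side by side for that reason. The cut was set by TUBB2A alone, and the other genes with a peak ranked 90 to 345 in the control list. The 825 genes are thus not matched to the 7 in peak strength.

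The actins come first. ACTB (ENSG00000075624) lies on the minus strand of chromosome 7 at 5526409 to 5563902, with its canonical start at 5530601. Its peak was at 5530353 to 5530733 in the control list, at 5530372 to 5530722 in the shU2AF1 list and at 5530362 to 5531005 in the shDHX9 list. It ranked 252 of 2757 by fold enrichment, 171 of 1730 and 190 of 4443, respectively, that is, in the top 9.14%, 9.88% and 4.28%. The fold enrichment, the authors' ratio of signal to background within each list, was 6.65, 7.52 and 10.2. The summit was in exon 1, which is 78 bp long, at 36, 36 and 29 bp after the start.

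ACTG1 (ENSG00000184009), on the minus strand of chromosome 17 at 81509413 to 81523847, had peaks at 81512505 to 81512913 in the control list, 81512460 to 81512868 in the shU2AF1 list and 81512353 to 81513315 in the shDHX9 list. Their ranks were 127, 254 and 260, in the top 4.61%, 14.7% and 5.85%, with fold enrichments of 9.20, 6.69 and 9.29. The summit lay in exon 1 at 44 and 63 bp after the start in the control and shU2AF1 lists, and in the first intron at 84 bp in the shDHX9 list. By fold enrichment ACTG1 ranked above ACTB in the control list and below it in both knockdown lists. By −log10 p ACTG1 ranked above ACTB in every list, at 132 against 351, 260 against 313 and 268 against 290.

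Both actin peaks were wide in the shDHX9 list. The ACTB peak measured 381, 351 and 644 bp in the control, shU2AF1 and shDHX9 lists, and the ACTG1 peak 409, 409 and 963 bp. The added width at ACTB lay upstream: its upstream edge was at -132 bp from the start in the control list and at -404 bp in the shDHX9 list, while the downstream edge was at 248 and 239 bp. At ACTG1 both edges lay farther out, at -516 against -114 bp and at 446 against 294 bp. The DHX9 knockdown peak was thus 1.69 times as wide as the control peak at ACTB and 2.35 times at ACTG1. Of 830 protein-coding genes with peaks in all 3 lists whose peaks nearest to the start overlapped between the control and shDHX9 lists, 17.8% were at least 1.5 times as wide in the shDHX9 list, and the median ratio was 1.04. Of the 7 genes here, only the actins passed that ratio, which was set after the widths had been seen. Of 6 other cytoskeletal genes compared in the same way, 2 passed it as well.

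**Figure D2:**
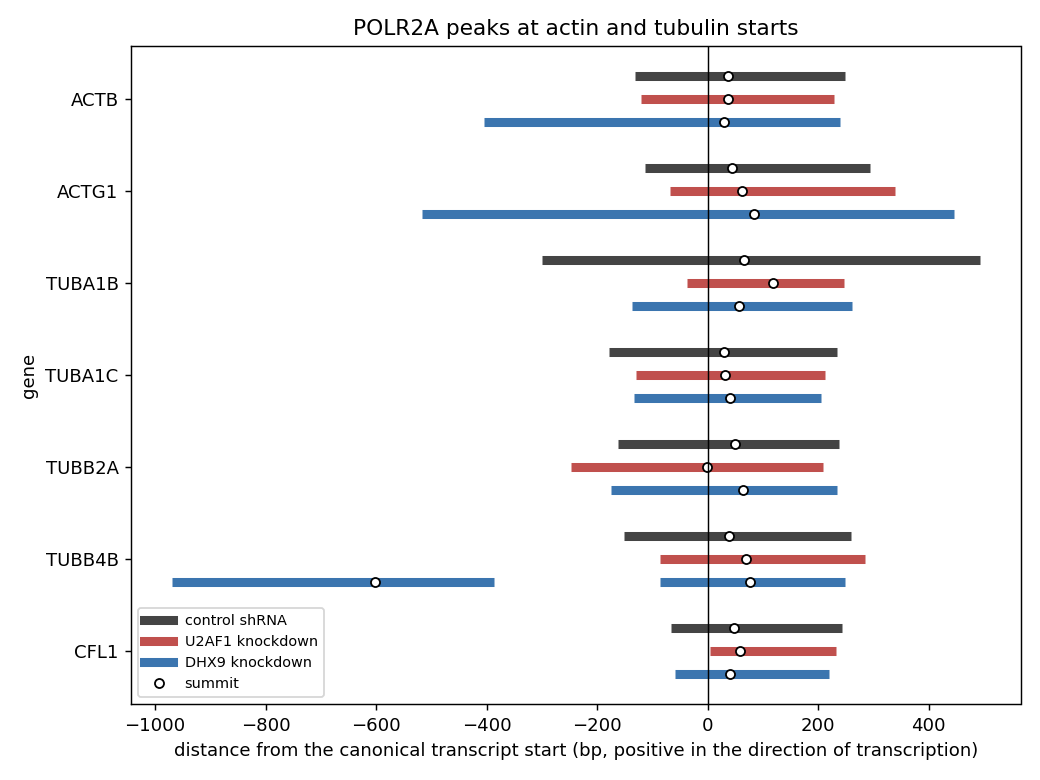
Extent of each POLR2A peak (bars) and its summit (circles) at the 7 genes with a peak, as distance from the canonical transcript start in bp, coloured by list. A second CFL1 peak of the shDHX9 list, at -2390 bp, is outside the range. In the shDHX9 list the upstream edge of the ACTB peak reaches -404 bp and that of ACTG1 -516 bp, and TUBB4B has a second peak with its summit at -602 bp.

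Among the α-tubulins, TUBA1B (ENSG00000123416, minus strand of chromosome 12, 49127782 to 49131397) had the control peak of highest fold enrichment in the group, at 49130902 to 49131694. By −log10 p it came after ACTG1 and TUBA1C, at rank 150 against 132 and 147. Its control rank was 90, in the top 3.26%, with a fold enrichment of 10.6. In the shU2AF1 list the peak was at 49131148 to 49131432 and ranked 533, in the top 30.8%, with a fold enrichment of 5.54. In the shDHX9 list it was at 49131133 to 49131532 and ranked 159, in the top 3.58%, with a fold enrichment of 10.8. The U2AF1 knockdown rank was the lowest of the 7 genes in that list.

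The TUBA1B peak also differed in width. Its control width was 793 bp, against 285 bp in the shU2AF1 list and 400 bp in the shDHX9 list. Its summit lay at 65 and 57 bp, in the 98 bp exon 1, in the control and shDHX9 lists, and at 119 bp, in the first intron, in the shU2AF1 list. The control peak was the only one of the 7 at least 1.5 times as wide as its counterpart in either knockdown list. Among all genes compared, 26.7% were that much wider in the control than in the shU2AF1 list (219 of 820) and 8.31% than in the shDHX9 list. The reverse, a U2AF1 knockdown peak at least 1.5 times as wide as the control peak, was found for 0 of the 7 and for 3.54% of all genes compared. The antisense gene TUBA1B-AS1 holds the same peak by the rule used, and POLR2A signal carries no strand, so the genes cannot be told apart here.

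TUBA1C (ENSG00000167553, plus strand of chromosome 12, 49188736 to 49274600) had its peak in nearly the same place in each list, at 49264904 to 49265316, 49264952 to 49265295 and 49264948 to 49265288 in the control, shU2AF1 and shDHX9 lists. It ranked 104, 105 and 345, in the top 3.77%, 6.07% and 7.77%, with fold enrichments of 9.86, 9.09 and 8.48. The summits, in exon 1, were 29, 31 and 40 bp after the start. TUBA1C had the best rank of the group in the shU2AF1 list. A non-coding gene, ENSG00000258101, holds the same peak.

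TUBA1A (ENSG00000167552), the isotype best known from neurons, is the neighbour of TUBA1C, and the annotated spans of the genes overlap, at 49184686 to 49189080 for TUBA1A. No list had a peak at TUBA1A. The nearest one in every list was that of TUBA1B, 57.8 kb away in the control list. Within 500 kb of its start, 7 of 30 other protein-coding genes had a control peak, 4 a U2AF1 knockdown peak and 10 a DHX9 knockdown peak. The shares of all protein-coding genes were 13.2%, 7.35% and 22.2%.

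Of the β-tubulins, TUBB2A (ENSG00000137267, minus strand of chromosome 6, 3153497 to 3157544) had the lowest control rank of the group and higher places in the knockdown lists. Its peak at 3157307 to 3157707 ranked 801 in the control list, in the top 29.1%, with a fold enrichment of 4.91. The U2AF1 knockdown peak, at 3157335 to 3157791, ranked 184, in the top 10.6%, with a fold enrichment of 7.36. The DHX9 knockdown peak, at 3157310 to 3157719, ranked 208, in the top 4.68%, with a fold enrichment of 9.97. The widths were alike, at 401, 457 and 410 bp. The summit was at 49 bp after the start in the control list, at -1 bp in the shU2AF1 list and at 64 bp in the shDHX9 list, and the U2AF1 knockdown summit was the only one of the 7 in that list that was not downstream of the start.

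TUBB4B (ENSG00000188229, plus strand of chromosome 9, 137241287 to 137243707) had peaks at 137241136 to 137241547, 137241201 to 137241571 and 137241201 to 137241536 in the control, shU2AF1 and shDHX9 lists. They ranked 124, 150 and 92, in the top 4.50%, 8.67% and 2.1%, with fold enrichments of 9.27, 7.90 and 13.9. As a percent of the list, the shDHX9 peak held the highest place of any of the 7 genes in any list. By rank number TUBA1B stood higher, at 90 in the shorter control list. The summits lay in the 131 bp exon 1, at 38, 70 and 76 bp, and that of the shDHX9 list was in its coding part. The shDHX9 list had a second TUBB4B peak upstream, at 137240317 to 137240900, with its summit at -602 bp, a fold enrichment of 5.64 and rank 1791. The other lists had no peak there.

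TUBB (ENSG00000196230, plus strand of chromosome 6, 30717435 to 30725538), the main β-tubulin of most dividing cells, had no peak in any list. It lies in the region of the major histocompatibility complex, for which the reference holds alternate haplotype sequences. The 1000 bp around its start were compared with the whole reference as words of 31 bases. Of the 970 words, 100% occurred again on alternate sequences, and each of 7 alternate sequences held at least 90% of them. For the other 9 genes 0% of the words occurred on an alternate sequence. On the chromosomes, 0% to 4.54% of the words of the 10 genes occurred a second time. None of the lists had a peak at the 7 copies. Whether the reads were aligned to alternate sequences is not given in the sources used here. That absence may therefore have been fixed in advance, and nothing is drawn from it.

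The surroundings of TUBB were without peaks too. Of 32 other protein-coding genes with a start within 500 kb, 0 had a peak in the control, 0 in the shU2AF1 and 0 in the shDHX9 list. The shares of all protein-coding genes were 13.2%, 7.35% and 22.2%. With so few genes, the count of 0 in the shU2AF1 list is near that share. The nearest peak on chromosome 6 was 2000 kb away in the control list, 524 kb in the shU2AF1 list and 2000 kb in the shDHX9 list. A read that fits several places equally well may be dropped or placed at random, and how such reads were treated is not given in the sources used here. The part of the copies in the missing TUBB peak was not tested, and the lists give no measure of polymerase at this gene.

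TUBG1 (ENSG00000131462, plus strand of chromosome 17, 42609641 to 42615238) encodes γ-tubulin, which nucleates microtubules at centrosomes. It had no peak in any list, with the nearest at 31.8 kb in the control, 73.2 kb in the shU2AF1 and 55.0 kb in the shDHX9 list. Of 42 other protein-coding genes within 500 kb, 10 had a control peak, 1 a U2AF1 knockdown peak and 7 a DHX9 knockdown peak. The shares of all protein-coding genes were 13.2%, 7.35% and 22.2%. Peak lists record only signal above the caller's threshold, so absence at TUBA1A and TUBG1 means no peak at this depth and not an absence of polymerase.

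CFL1 (ENSG00000172757, minus strand of chromosome 11, 65823022 to 65862026, canonical start 65858180) had peaks at 65857936 to 65858247, 65857947 to 65858176 and 65857961 to 65858239 in the control, shU2AF1 and shDHX9 lists. They ranked 345, 205 and 897, in the top 12.5%, 11.8% and 20.2%, with fold enrichments of 6.06, 7.1 and 6.77. The summits were at 48, 58 and 41 bp, in the 84 bp exon 1. CFL1 had the narrowest peak at the start of the 7 genes in each list, at 312, 230 and 279 bp.

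In the shDHX9 list a second peak, at 65860404 to 65860716, also fell within the CFL1 annotation, with its summit at -2390 bp and a fold enrichment of 7.0, slightly above that at the start. Its rank was 804. It lay 137 bp after the canonical start of MUS81, an endonuclease gene that runs in the opposite direction, so it is a peak at the MUS81 start by position. The peak at the CFL1 start is within the annotated span of MUS81 as well. Where 1 peak stands for CFL1 in the shDHX9 list below, it is this stronger one unless the text says otherwise.

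Across the 7 genes the peaks stood high in every list. Their median rank was 127 in the control list, 184 in the shU2AF1 list and 208 in the shDHX9 list, or the top 4.61%, 10.6% and 4.68%. The medians for all protein-coding genes with a peak were 45.4%, 42.4% and 45.7%. By fold enrichment, in the top 10% of the list were 5 of 7 genes in the control list, against 8.88% of genes with a peak there. In the shU2AF1 list 3 of 7 were, ACTB, TUBA1C and TUBB4B, against 8.36%. In the shDHX9 list 6 of 7 were, all but CFL1, against 9.84%. Ranked by −log10 p, the top 10% held 4 of 7 in the control list, against 6.27% of genes with a peak, 0 of 7 in the shU2AF1 list, against 5.03%, and 6 of 7 in the shDHX9 list, against 8.37%. None of the 7 reached the top 2% of any list by fold enrichment.

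**Figure D3:**
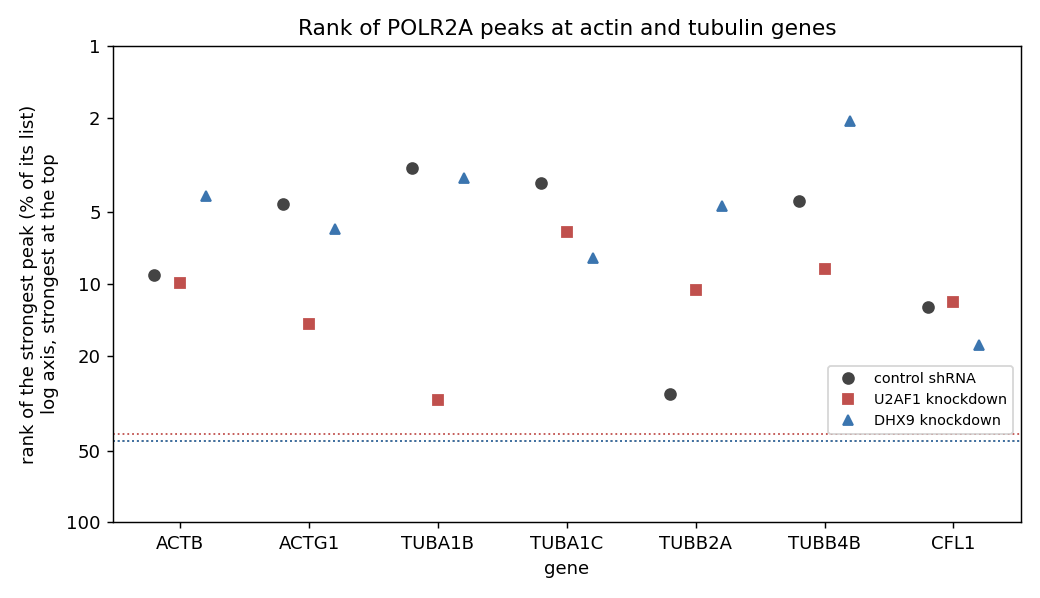
Rank of the strongest peak of each gene as a percent of its list (vertical log axis, strongest at the top), by gene, with 1 symbol per list. Dotted lines are the medians of all protein-coding genes with a peak, at 45.4%, 42.4% and 45.7%, the first and last of which coincide at this scale. All 21 symbols lie above these lines, from 2.1% for TUBB4B under DHX9 knockdown to 30.8% for TUBA1B under U2AF1 knockdown.

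Because ranks in lists of different length show no change, the genes were also ordered by fold enrichment among the same 870 protein-coding genes, those with a peak in all 3 lists. The 7 genes held a median place in the top 6.78% of this order in the control list, 14.0% in the shU2AF1 list and 14.5% in the shDHX9 list. ACTB had the smallest spread of places among the 7, at 17.6%, 12.8% and 13.0%. TUBB4B stood at 6.55%, 10.7% and 4.37%.

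The other 5 genes held different places in different lists. TUBA1B stood at 4.14% in the control list, 43.9% in the shU2AF1 list and 10.7% in the shDHX9 list. TUBB2A stood lowest in the control list, at 49.8%, against 14.0% and 14.5% after knockdown of U2AF1 and DHX9. ACTG1 stood at 6.78%, 21.4% and 18.7%. TUBA1C stood at 5.06% and 6.78% in the control and shU2AF1 lists and at 25.3% in the shDHX9 list. CFL1 stood at 25.3%, 16.3% and 44.7%, and with its peak at the start in place of the stronger one the last value was 45.7%.

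**Figure D4:**
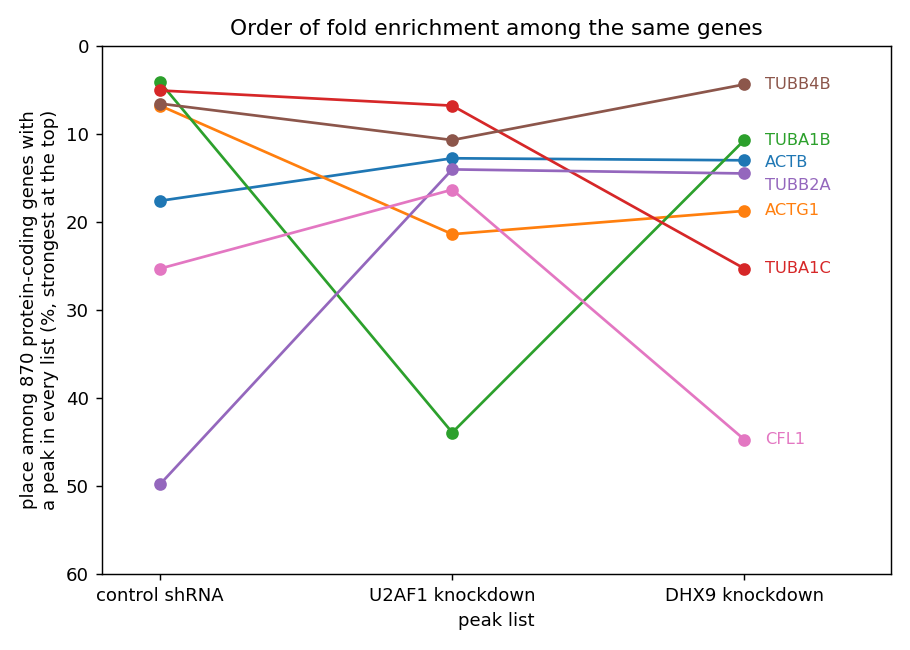
Place of each gene by fold enrichment among the 870 protein-coding genes with a peak in every list (vertical axis, percent, strongest at the top), in the control shRNA, shU2AF1 and shDHX9 lists. TUBA1B stands at 43.9% in the shU2AF1 list and at 4.14% and 10.7% in the others, and TUBB2A stands at 49.8% in the control list and at 14.0% and 14.5% in the others.

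Differences in place of at least 10 points were common among all genes. In the shU2AF1 list 1 of the 7, TUBB2A, stood at least 10 percentage points higher than in the control list, against 33.3% of the 870 genes. TUBA1B and ACTG1 stood at least 10 points lower, 2 of 7 against 32.3%. In the shDHX9 list 1 of 7, again TUBB2A, stood that much higher than in the control list, against 33.2%. There ACTG1, TUBA1C and CFL1 stood lower, 3 of 7 against 34.9%. Between the knockdown lists, TUBA1B alone stood at least 10 points higher in the shDHX9 than in the shU2AF1 list, 1 of 7 against 33.3%, and TUBA1C and CFL1 stood lower, 2 of 7 against 35.1%. These counts are near or below the shares of all genes. TUBB2A and ACTG1 take their direction in both comparisons from the same control list.

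When the 870 genes were ordered by −log10 p, TUBA1B stood at 7.13% in the control list and 22.5% in the shU2AF1 list. TUBB2A stood at 30.3% and 13.4%. For both genes the direction was the same by either measure, and the sizes depended on which of them set the order.

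The peaks at the starts of the 7 genes overlapped between lists, as did those of nearly all genes. For CFL1 the peak at its own start, not the stronger one at MUS81, was compared in the shDHX9 list. An overlap was found for 7 of 7 genes in each pair of lists, against 97% of the 870 genes between the control and shU2AF1 lists, 98.5% between the control and shDHX9 lists and 96.4% between the knockdown lists. The overlap covered at least 89.0% of the shorter peak at each of the 7 genes. The distance between summits ranged from 0 bp, at ACTB between the control and shU2AF1 lists, to 65 bp, at TUBB2A between the knockdown lists. The median distance was 19 bp between the control and shU2AF1 lists, 11 bp between the control and shDHX9 lists and 17 bp between the knockdown lists. The median summit was 44 bp after the canonical start in the control list and 58 bp in the shU2AF1 list. For all protein-coding genes with a summit within 1000 bp the medians were 49 and 60 bp, with quartiles at -127 and 83 bp and at -54.5 and 107 bp. In the shDHX9 list the median over 6 genes, CFL1 left out because its stronger peak is at MUS81, was 60.5 bp, against 46 bp.

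The median widths of the 7 genes' strongest peaks were 409, 351 and 400 bp in the control, shU2AF1 and shDHX9 lists, against 324, 281 and 328.5 bp for all protein-coding genes with a peak. The CFL1 peak was narrower than that median in every list, at 312, 230 and 313 bp. The same genes stood high in their lists, and the part of peak strength in the widths was not tested.

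ACTB was compared with all 870 genes for likeness, measured as the distance between the 3 within-list percents. The nearest were YWHAH, a 14-3-3 protein gene, with ranks 230, 168 and 230 in the control, shU2AF1 and shDHX9 lists, ENSG00000285404, which holds the same peaks, and PSMG3, a proteasome assembly factor gene, with ranks 239, 192 and 162. With 3 lists such likeness rests on 3 values.

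Genes whose products work with actin and tubulin were counted in the same way. Of 74 further genes of the cytoskeleton, 15 had a peak in the control list, 7 in the shU2AF1 list and 31 in the shDHX9 list, which is 20.3%, 9.46% and 41.9%. The corresponding shares of all protein-coding genes were 13.2%, 7.35% and 22.2%. With 1730 top peaks taken from each list the shDHX9 list had 8 of the 74, and with −log10 q of at least 5 the shU2AF1 list had 3. In all 3 lists 6 of the 74 had a peak: TMSB10, PFN1, CAPZA1, TUBGCP2, MZT2A and MRTFB. Other genes that hold the same peaks are not listed for the 74, so a peak counted here may also belong to a neighbour. In the top 10% of a list stood 0 of 15 in the control list, against 8.88% of all protein-coding genes with a peak there. The counts were 0 of 7 in the shU2AF1 list, against 8.36%, and 2 of 31 in the shDHX9 list, against 9.84%. With so few genes these counts are near the shares of all genes. The ranks of these cytoskeletal genes had a median of 42.6%, 47.9% and 46.2% of the list. The medians for all protein-coding genes with a peak were 45.4%, 42.4% and 45.7%.

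The remaining members of the actin and tubulin families were mostly without a peak. None of the 4 muscle actins and none of 6 further α-tubulins had one in any list. Of 6 further β-tubulins, TUBB3 and TUBB6 had a peak in the shDHX9 list only, of rank 330 and 1466. TUBD1 and TUBE1, δ- and ε-tubulin of the centriole, had peaks in the control list, of rank 1174 and 601, and in the shDHX9 list, of rank 3056 and 3993.

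Among proteins that bind actin monomers, TMSB10, which encodes a thymosin, ranked 632 in the control list, 219 in the shU2AF1 list and 111 in the shDHX9 list. In the common order it stood at 42.4%, 17.8% and 6.32%. Like TUBB2A, MZT2A and MRTFB, it stood at least 10 points higher in both knockdown lists than in the control list. Of the 870 genes, 33.3% stood that much higher in the shU2AF1 list and 33.2% in the shDHX9 list. Both comparisons use the same control value. PFN1, profilin, ranked 1038, 859 and 658. The class counted was wider, with 13 genes listed for actin monomer binding and severing, SSH1 and WDR1 among them. Of these 13 genes, 4 had a control peak, 3 a U2AF1 knockdown peak and 6 a DHX9 knockdown peak. The Arp2/3 complex, which starts branched filaments, had peaks at 0 of 8 genes in the control and shU2AF1 lists and at 3, ARPC1A, ARPC2 and ARPC4, in the shDHX9 list. For these small classes the shares of all protein-coding genes were 13.2%, 7.35% and 22.2%. The shDHX9 list is the longest, and with 1730 top peaks from each list it held 8 of the 74 genes. The class counts therefore show no gain or loss at these genes.

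The CCT chaperonin folds actin and tubulin with the help of prefoldin. Of the 14 genes of both together, 2 had a control peak, CCT7 and CCT8, 0 a U2AF1 knockdown peak and 7 a DHX9 knockdown peak. The last include the prefoldin gene PFDN2. Of 5 tubulin folding cofactors, TBCB had a control peak, none a U2AF1 knockdown peak and TBCB, TBCD and TBCE a DHX9 knockdown peak. In the γ-tubulin complex, 4 of 9 genes had a control peak, 2 a U2AF1 knockdown peak and 4 a DHX9 knockdown peak. For all protein-coding genes the shares were 13.2%, 7.35% and 22.2%, and these classes are too small for a comparison with them. TUBGCP2 ranked 290, 1139 and 2705 in the control, shU2AF1 and shDHX9 lists, from 20.9% of the common order to 82.3% and 88.6%. Its −log10 q was 16.1, 3.08 and 4.22, so both knockdown peaks were below the cut of 5 used as an alternative. Of the 870 genes, 32.3% stood at least 10 points lower in the shU2AF1 than in the control list, and 34.9% in the shDHX9 list. MZT2A and MZT2B are near-identical genes, and their values are uncertain for that reason.

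Of SRF and its actin-binding coactivators, MRTFB had a peak in each list, of rank 1268, 628 and 631, and SRF and MRTFA had none. The capping protein gene CAPZA1 had a peak near its start in the control and shDHX9 lists, with summits at -762 and -723 bp. In the shU2AF1 list its peak was inside the gene, 20159 bp after the start, with rank 353.

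Actin, tubulin and cofilin genes have many processed copies in the genome, made by reverse transcription of their spliced messenger RNAs. Annotated pseudogenes with matching names numbered 90, with 33 of actin, 13 of α-tubulin, 35 of β-tubulin, 1 of γ-tubulin and 8 of cofilin. They were pseudogenes of any type, not processed copies alone. Of the 90, 0 had a peak in the control list, 0 in the shU2AF1 list and 0 in the shDHX9 list. The share of all annotated pseudogenes with a peak is not given here, so these counts have no background beside them.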

How the data were processed

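POLR2A ChIP-seq of HEK293T cells was used as 3 deposited peak lists, 1 per condition. Bowtie2 2.4.5, deepTools 3.5.1, MACS2 2.2.7.1 and the build hg38 are named, per the submitters' processing notes, without roles or settings. The labels give each list to both replicates. Peak names of the control list carry a 1, so its libraries are uncertain. Fold enrichment per peak is the authors' ratio, on a background that is not stated, and was used only within a list. The deposited −log10 p and −log10 q are the authors' as well.

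Summits were assigned to GENCODE version 44 genes as described, using Python 3.11.15, pandas 2.3.3 and pysam 0.24.0, and the assignment was checked on simulated data. A gene with several peaks was represented by the one of highest fold enrichment. Offsets refer to the Ensembl canonical start, which is base 0 in peak offsets, while in promoter positions -1 is the base before it. No tests were made. The genes, the gene lists and the alternatives were chosen with earlier results of these data known. All 10 genes were named. Of the other 74, those with a peak could be named, first those in all 3 lists. The promoter sequence of ACTB is not reported here.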

Additional observations from a re-analysis of the deposited data

How the results depend on the processing

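The count of 7 genes with a peak held in each list, and in all 3 at once, under the 6 alternatives tried: start windows of 500 and 2000 bp, canonical starts alone, starts without gene bodies, −log10 q of at least 5 and 1730 top peaks per list. A value counted as moved past a factor of 1.5, and 13 values of the comparisons did, while 80 did not. These leave out the values of single genes, of which a further 12 moved. Ranked by −log10 p, ACTB and CFL1 stood in the top 18.1% and 20.8% of the shU2AF1 list, and TUBB2A in the top 16.2% of the control list. On chromosomes 1 to 22 and X alone ACTB stood at 10.2% of the shU2AF1 list, outside the top 10%. Other cytoskeletal genes with a peak fell to 3 in the shU2AF1 list with −log10 q of at least 5, and to 8 in the shDHX9 list with 1730 top peaks, where fewer peaks enter by construction. Ranked by −log10 p, 0 of the 7 genes were in the top 10% of the shU2AF1 list. Among start site peaks alone the median rank in the control list was the top 2.42%. From the nearest annotated start of any transcript the median summit was at 29 bp in the control and 31 bp in the shU2AF1 list. In the common order, −log10 q of at least 5 left 543 genes and put 2 genes higher in the shU2AF1 than in the control list and 2 higher in the shDHX9 than in the shU2AF1 list. Ordering by −log10 p put 1 gene lower in the shU2AF1 than in the control list, as ACTG1 differed by -9.54 points, and 0 higher in the shDHX9 than in the shU2AF1 list. With a move of at least 20 points 1 gene stood lower in each of the 3 comparisons. Using the peak nearest to the start, an alternative chosen after seeing the data, changed none of the 6 counts of moves. The cause of these moves was not tested. No paired analysis was possible because the replicates of a condition share 1 list, and for the same reason none could be left out in turn. The unknown depth of the libraries limits every absence of a peak.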
